A study of Mus musculus with 2 samples.

Results

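TRAV7 is one of the largest families of variable genes of the mouse T cell receptor α chain (TCRα). A clonotype here is a group of sequencing reads with the same CDR3 nucleotide sequence, the stretch where the V and J genes join. A clonotype was taken as a TRAV7 rearrangement when its first-listed J gene was a TRAJ gene and its first-listed V gene carried the family number 7, whether the gene was an original (TRAV7-), D (TRAV7D-) or N (TRAV7N-) copy. These criteria selected 888 of 6089 TCRα clonotypes in the thymus and 1177 of 9583 in the spleen, 2065 in all, of 19558 clonotypes of any chain in both libraries. The cells were iT cells, which are T cells made from mouse embryonic stem cells (C57BL/6 background) that carry an inducible Runx1-p2a-Hoxa9 cassette in the Rosa26 locus (iR9-ESC). They had developed in immunodeficient B-NDG mice (iT-B-NDG mice) after transplantation of progenitors induced from those stem cells, and 15000 sorted CD4 or CD8 single-positive cells entered each library. The study describes the cells of both tissues as naïve, but the gates in its methods list markers of naïve cells (CD62L positive, CD44 negative) for the spleen only. If the gates differed, tissue and gate cannot be told apart. Neither the number of mice behind a library nor a library of natural T cells was analysed here.

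There was 1 library per tissue, so no difference between thymus and spleen has a replicate check. The thymus library held 918063 TCRα reads and the spleen library 1820314, and TRAV7 clonotypes held 181048 and 289881 of them. A floor of 3 reads equals 0.000327% of the thymus TCRα reads and 0.000165% of those of the spleen. Intervals are Wilson 95% intervals of counts. Without stated molecular identifiers, these intervals and this floor account for counting error alone, and more cells of a clonotype cannot be told apart from more transcripts per cell. As a check of the label, the constant gene first listed was TRAC, that of TCRα, for 884 TRAV7 clonotypes in the thymus and 1159 in the spleen, and the other 4 and 18 had no constant gene listed.

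A TCRα gene is assembled in the developing thymocyte by joining 1 V gene to 1 J gene, with trimming of both ends and addition of untemplated nucleotides at the junction. The TRAJ genes lie downstream of the TRAV genes and are numbered so that the highest numbers are nearest to the V genes. A cell can rearrange the same allele again, which joins a V gene further upstream to a J gene further downstream. The central part of the TRAV array is duplicated in C57BL/6 mice, and the D and N copies stem from these duplications.

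The 13 TRAV7 genes of the annotation (GENCODE M21, build GRCm38) were all found in the libraries. They lie on the plus strand of chromosome 14 over 1062 kb, from TRAV7-1 at chr14:52654817-52655328 to TRAV7-6 at chr14:53716716-53717291, which ends 438 kb before the first TRAJ gene. Their order from the 5′ end was TRAV7-1, the D copies TRAV7D-2 to TRAV7D-5, the N copies TRAV7N-4 to TRAV7N-6, and then TRAV7-2 to TRAV7-6. The following germline ends show what each V gene brings to the CDR3, from the first base of the codon of the conserved cysteine to the last base of the annotated V exon. Capitals mark bases that differ from TRAV7-3 at the same position, compared without gaps, or that lie beyond its end.
TRAV7-3: tgtgcagtgagca
TRAV7D-2: tgtgcagCAagca
TRAV7-2: tgtgcagCAagc
TRAV7-4: tgtgcagCTagTGAGCA
TRAV7N-4: tgtgcagtTagTGAGCA

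The end of TRAV7-3 was shared by TRAV7-1, TRAV7-5, TRAV7-6, TRAV7D-3, TRAV7D-5, TRAV7N-5 and TRAV7N-6, and the end of TRAV7-4 by TRAV7D-4. Counted from the first base of the cysteine codon without gaps, TRAV7-2 and TRAV7D-2 differed from TRAV7-3 by T8C and G9A. In the same way, TRAV7-4 differed by T8C, G9T, C12T and A13G, and TRAV7N-4 by G9T, C12T and A13G. The ends of TRAV7-4 and TRAV7N-4 close with tgagca, as that of TRAV7-3 does. With a gap allowed, TRAV7-4 equals the TRAV7-3 end with ctag inserted after tgtgcag, and TRAV7N-4 with ttag. Bases 7 to 9 form the third codon, which encodes alanine in TRAV7-2, TRAV7D-2, TRAV7-4 and TRAV7D-4 and valine in the other 9 genes. Of the observed TRAV7 clonotypes, between 69.1% (TRAV7D-3) and 95.2% (TRAV7N-4) of a gene's clonotypes began with its first 9 germline nucleotides. The V alignment that names the gene also covers these bases.

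The CDR3 sequences below are the most abundant TRAV7 clonotypes of each library and 3 of the leading clonotypes in both libraries, namely those listed with the same V gene in each. Capitals mark nucleotides between the aligned end of V and the aligned start of J, and a sequence without capitals has none.
Thymus, TRAV7-4 with TRAJ11: tgtgcagTCGGGCacaaactcactttt
Thymus, TRAV7N-5 with TRAJ5: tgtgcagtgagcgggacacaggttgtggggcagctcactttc
Thymus, TRAV7D-2 with TRAJ9: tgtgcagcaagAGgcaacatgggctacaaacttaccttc
Spleen, TRAV7-4 with TRAJ31: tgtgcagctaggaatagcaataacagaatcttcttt
Spleen, TRAV7D-3 with TRAJ9: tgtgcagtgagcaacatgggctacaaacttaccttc
Spleen, TRAV7-3 with TRAJ9: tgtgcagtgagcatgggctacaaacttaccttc
Both, TRAV7D-2 with TRAJ12: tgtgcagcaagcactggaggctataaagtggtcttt
Both, TRAV7N-5 with TRAJ27: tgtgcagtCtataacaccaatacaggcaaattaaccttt
Both, TRAV7N-6 with TRAJ12: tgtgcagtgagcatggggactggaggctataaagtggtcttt

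TRAV7 supplied 14.6% of the thymus TCRα clonotypes (13.7% to 15.5%) and 12.3% of the spleen TCRα clonotypes (11.6% to 12.95%). TRAV6 supplied more, at 16.6% and 15.7%. TRAV7 came next in both, but in the spleen by a single clonotype, with 1177 against 1176 for TRAV12. The difference for TRAV7, spleen minus thymus, was -2.30 percentage points (95% Newcombe interval -3.41 to -1.21; two-sided Fisher's exact test, Benjamini-Hochberg adjusted p = 0.000113 over 12 tests). This test and those below compare these libraries and not the tissues, and they treat clonotypes as independent although some CDR3 sequences were in both libraries. By reads the TRAV7 share was larger, at 19.7% of the thymus TCRα reads and 15.9% of the spleen TCRα reads, the highest of all families in both, against 14.0% and 14.9% for TRAV6. A TRAV7 clonotype had a median of 128.5 and 153 reads against 79 and 98 reads for all other TCRα clonotypes. Without the single most abundant TCRα clonotype of each library, which used another V family, the share of reads was 22.1% and 16.2%.

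By subgroup, which groups a gene with its D and N copies, TRAV7-4 and TRAV7-2 led in the thymus and TRAV7-4 and TRAV7-5 in the spleen. TRAV7-4 held 240 thymus clonotypes (27.0% of TRAV7, 24.2% to 30.0%) and 315 spleen clonotypes (26.8%, 24.3% to 29.4%). TRAV7-2 held 225 clonotypes in the thymus (25.3%) and 226 in the spleen (19.2%), and TRAV7-5 held 164 (18.5%) and 257 (21.8%). These 3 subgroups thus made up most of the family in both libraries. TRAV7-6 held 123 clonotypes in the thymus (13.9%) and 227 in the spleen (19.3%), TRAV7-3 held 86 (9.68%) and 116 (9.86%), and TRAV7-1, which has no listed copy, held 50 (5.63%) and 36 (3.06%).

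The original genes were the largest of the 3 groups of copies by first-listed clonotypes. They were listed first for 473 thymus clonotypes (53.3%, 50.0% to 56.5%) and 568 spleen clonotypes (48.3%, 45.4% to 51.1%). The N copies held 216 (24.3%, 21.6% to 27.3%) in the thymus and 381 (32.4%, 29.8% to 35.1%) in the spleen, where their interval lay above that of the thymus. The D copies held 199 (22.4%) and 228 (19.4%), so that in the spleen the N and D copies together held more clonotypes than the original genes. When each clonotype was divided over the V genes that shared its highest score, the original genes held 44.4% and 41.1% and the D copies 30.1% and 25.6% in thymus and spleen. With ties left out, the original genes held 44.4% of thymus clonotypes and the N copies 30.4%, against 40.5% and 38.6% in the spleen. By reads with ties left out, the N copies led in the spleen, at 40.4% against 35.1% for the original genes. In the thymus they did not, at 30.2% against 39.4%.

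Among single genes, TRAV7-2 was listed first for 156 thymus and 166 spleen clonotypes, all of them tied with TRAV7D-2, so that this count gives it no rank. TRAV7-4 had 122 thymus and 125 spleen clonotypes, and TRAV7N-6 had 95 and 155. With ties divided equally, TRAV7D-2 led in the thymus with 147 clonotypes before TRAV7-4 with 122, and TRAV7N-6 led in the spleen with 155 before TRAV7D-2 with 143, while TRAV7-2 had 78 and 83. TRAV7N-5 had 74 thymus and 127 spleen clonotypes, and TRAV7-5 had 70 and 108. Genes of the original and the N block, and with ties divided also the D copy TRAV7D-2, were thus among those with many clonotypes. TRAV7N-4 had 47 and 99, TRAV7D-4 71 and 91, and TRAV7-6 28 and 72. TRAV7D-2 was listed first for 69 and 60, and TRAV7-3 had 47 and 61, TRAV7D-3 39 and 55, and TRAV7-1 50 and 36. TRAV7D-5, whose clonotypes were all tied with TRAV7N-5, had 20 and 22. The intervals of genes with similar counts overlapped widely, as the plot of gene use shows.

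**Figure D1:**
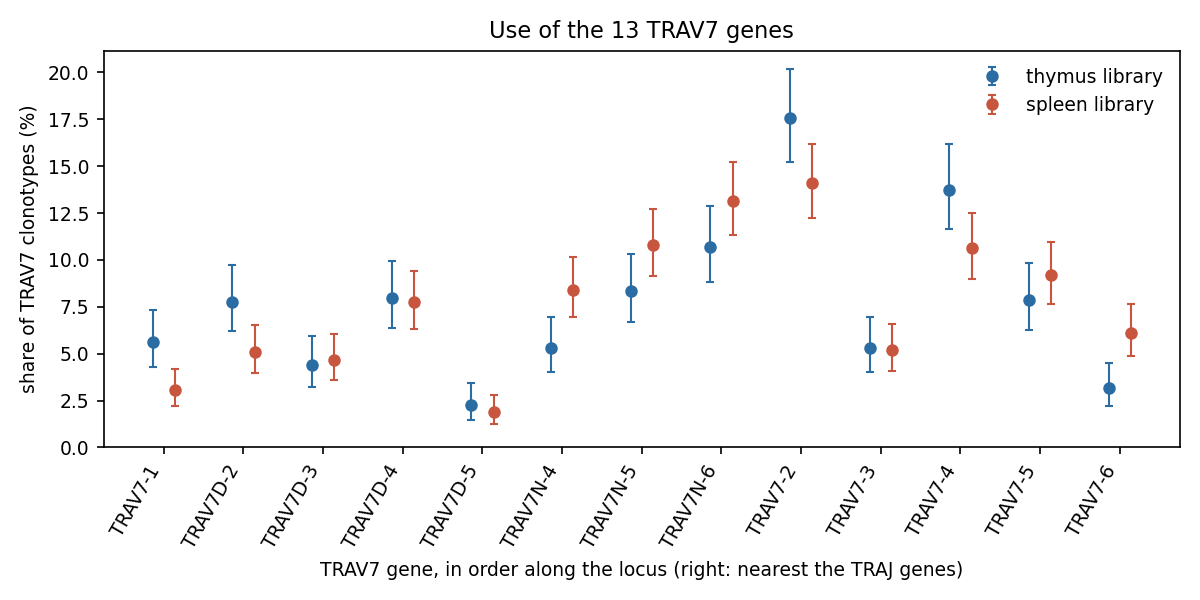
Share of TRAV7 clonotypes (%) that listed each of the 13 TRAV7 genes first, with the genes ordered along the locus, for 1 thymus library (888 clonotypes, blue) and 1 spleen library (1177 clonotypes, red). Bars are Wilson 95% intervals. All TRAV7-2 clonotypes were tied with TRAV7D-2 and all TRAV7D-5 clonotypes with TRAV7N-5, and they stand under the name listed first, so the points of these 4 genes give no rank.

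Shares of all TCRα clonotypes were compared between the libraries for 107 V genes with at least 20 clonotypes, and 11.2% of them (12 genes) differed by at least 2-fold in either direction. Of the 13 TRAV7 genes 1 did, which is near that background. This was TRAV7-1, with 0.821% of thymus clonotypes and 0.376% of spleen clonotypes, a ratio (spleen over thymus) of 0.457 (95% interval 0.298 to 0.701). TRAV7D-2 had a ratio of 0.553 (0.392 to 0.780), and at the other end TRAV7-6 had a ratio of 1.63 (1.06 to 2.53) and TRAV7N-4 of 1.34 (0.947 to 1.89). The median ratio was 0.825 over the TRAV7 genes and 0.993 over all 107 V genes, and 4 TRAV7 genes and 53 of all V genes lay above 1.

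The assignment to a copy was ambiguous for a group of TRAV7 clonotypes. The highest V alignment score was shared by at least 2 genes in 177 thymus clonotypes (19.9% of TRAV7, 17.4% to 22.7%) and 191 spleen clonotypes (16.2%, 14.2% to 18.4%), against 25.7% and 27.2% of all other TCRα clonotypes. No tie reached beyond the family, which allows at most a share of 0.431% in the thymus and 0.325% in the spleen by the upper Wilson limit. The ties came almost wholly from 2 pairs of genes. All 156 thymus and 166 spleen clonotypes that listed TRAV7-2 first had TRAV7D-2 at the same score, and all 20 and 22 that listed TRAV7D-5 first had TRAV7N-5 at the same score. The other 1 thymus and 3 spleen ties listed TRAV7-3 or TRAV7-4 first.

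In the annotation the transcripts of TRAV7-2 and TRAV7D-2 were identical over 336 aligned nucleotides, and those of TRAV7D-5 and TRAV7N-5 over 340. By contrast TRAV7-4 and TRAV7D-4 differed at 2 of 451 nucleotides and TRAV7-3 and TRAV7D-3 at 4 of 402, and these pairs were tied in 1 clonotype each. Identity within a subgroup ranged from 95.8% to 100% over 9 gene pairs, and between subgroups from 81.2% to 93.8% over 69 pairs. TRAV7-2 never scored above TRAV7D-2, and TRAV7D-5 never above TRAV7N-5. Tied genes were listed in the order of their names. The counts of TRAV7-2 and TRAV7D-5 are therefore counts of ties and not of clonotypes that could be placed in those genes.

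Although the annotated sequences were identical, a group of clonotypes scored higher for TRAV7D-2 alone, and this group differed from the tied one. There were 66 such clonotypes in the thymus and 59 in the spleen, with a median gain in score of 31.6 and 28.7. They had a median of 322 and 391 reads, against 131 and 145 reads for the tied clonotypes. They were productive, that is in frame and without a stop codon, in 90.9% (81.6% to 95.8%) and 93.2% (83.8% to 97.3%), against 80.1% (73.2% to 85.6%) and 73.5% (66.3% to 79.6%) for the tied clonotypes. Both groups thus overlapped in their intervals in the thymus and not in the spleen. The productive clonotypes that listed TRAV7D-2 first also had shorter CDR3s, with means of 37.3 nt (SD 2.65) and 36.9 nt (SD 2.86) in thymus and spleen, against 41.4 nt (SD 3.96) and 41.1 nt (SD 2.92) for TRAV7-2. A gain in score was not particular to TRAV7D-2. In the other identical pair, TRAV7N-5 scored above TRAV7D-5 in 31 thymus and 70 spleen clonotypes, with a median gain of 110.8 and 120.6. A further 43 and 57 clonotypes listed TRAV7N-5 without TRAV7D-5. The gene library of MiXCR was not used here, so the sequences behind the higher scores were not examined.

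**Figure D2:**
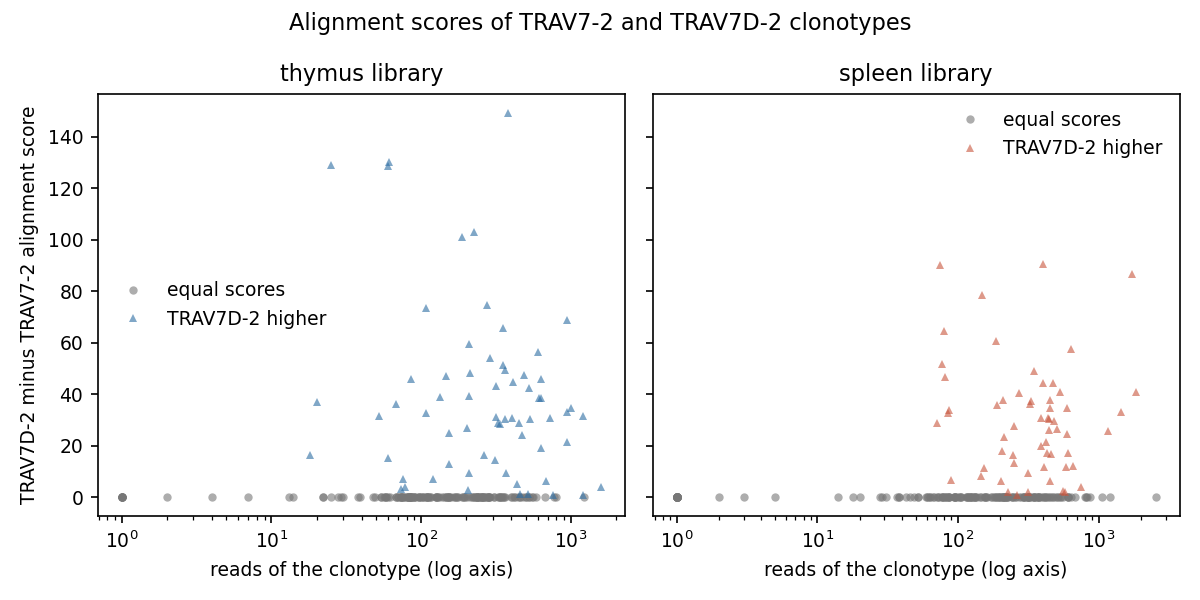
V alignment score of TRAV7D-2 minus that of TRAV7-2 (vertical axis) against the reads of the clonotype (horizontal log axis) for clonotypes with both genes listed, in the thymus (left) and spleen (right) libraries. Grey circles are the 156 and 166 clonotypes with equal scores, coloured triangles are the 66 and 59 with a higher score for TRAV7D-2, and none lies below 0.

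TRAV7 clonotypes joined 43 TRAJ genes in the thymus and 45 in the spleen, in 325 and 349 pairs of a V and a J gene. In the thymus TRAJ23 led with 65 clonotypes (7.32%, 5.78% to 9.22%), followed by TRAJ30 with 50, TRAJ27 and TRAJ31 with 48 each, and TRAJ12 and TRAJ26 with 43 each. In the spleen TRAJ31 led with 81 (6.88%, 5.57% to 8.47%), followed by TRAJ23 with 75, TRAJ26 with 72, TRAJ27 with 66 and TRAJ22 with 65. All of these genes lie in the middle or downstream part of the TRAJ array. The leading pair was TRAV7-2 with TRAJ37 in the thymus (14 clonotypes, 2991 reads) and TRAV7-2 with TRAJ23 in the spleen (24 clonotypes, 8956 reads), both from tied clonotypes.

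**Figure D3:**
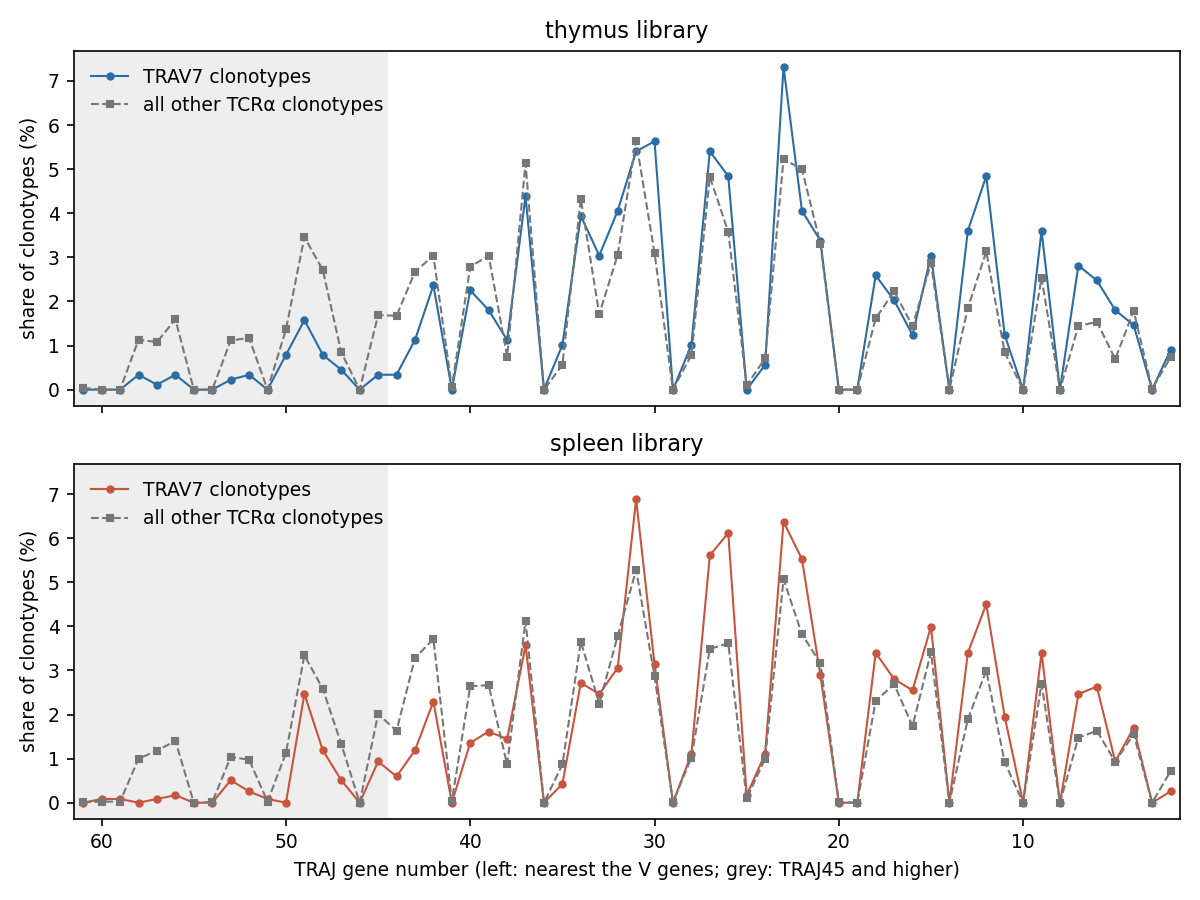
Share of clonotypes (%) joined to each TRAJ number in the thymus (top) and spleen (bottom) libraries, for TRAV7 clonotypes (coloured circles) and all other TCRα clonotypes (grey squares), with 1 library per tissue. In the grey zone of TRAJ45 and higher numbers TRAV7 lay at 5.29% and 6.37% in sum against 16.2% and 16.1%.

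TRAV7 was joined to the J genes nearest to the V genes less often than the rest of TCRα. TRAJ45 and higher numbers were used by 47 of the 888 thymus clonotypes (5.29%, 4.003% to 6.97%) and 75 of the 1177 spleen clonotypes (6.37%, 5.11% to 7.91%). Among all other TCRα clonotypes the shares were 16.2% (15.2% to 17.2%) and 16.1% (15.3% to 16.9%). The differences of -10.9 percentage points (-12.6 to -8.98) in the thymus and -9.71 (-11.2 to -7.99) in the spleen passed the test (two-sided Fisher's exact test, adjusted p = 3.87e-20 and 1.62e-20). The gap was matched by more use of TRAJ23 and lower numbers, at 46.4% (43.1% to 49.7%) and 48.8% (45.9% to 51.6%) of TRAV7 clonotypes against 36.3% and 37.0% of the rest. TRAV6 used TRAJ45 and higher numbers in 12.4% and 10.7% and TRAV9 in 9.80% (6.67% to 14.2%) and 7.37% (5.35% to 10.1%). The interval of TRAV9 overlapped that of TRAV7 in both libraries. Between spleen and thymus the TRAV7 share differed by 1.08 percentage points (-1.02 to 3.09), which did not pass the test (Fisher's exact test, adjusted p = 0.415).

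The use of these J genes varied along the family. TRAV7-6, the gene nearest to the TRAJ array, joined TRAJ45 or higher numbers in 10 of 28 thymus clonotypes (35.7%, 20.7% to 54.2%) and 19 of 72 spleen clonotypes (26.4%, 17.6% to 37.6%). TRAV7-5, the next gene upstream, did so in 10% (4.93% to 19.2%) and 8.33% (4.45% to 15.1%). TRAV7N-6, the copy of TRAV7-6 that lies 830 kb from the TRAJ array, did so in 4.21% (1.65% to 10.3%) and 14.8% (10.1% to 21.3%), and 18 of its 23 such clonotypes in the spleen joined the single gene TRAJ49. Weighted by reads, the shares in the spleen were lower, at 11.8% for TRAV7-6, 3.68% for TRAV7-5 and 5.83% for TRAV7N-6, while in the thymus they were 28.0%, 10.5% and 4.50%. TRAV7N-4 went the other way between the libraries, with 12.8% (5.98% to 25.2%) in the thymus and 2.02% (0.556% to 7.07%) in the spleen. The other 9 genes lay between 0% and 6.56% in both libraries, and TRAV7D-5 had none of its 20 and 22 clonotypes there, which allows up to 16.1% and 14.9%. Without weighting for the number of clonotypes, the share rose with nearness to the TRAJ array across the 13 genes with a Spearman correlation of 0.649 in the thymus and 0.556 in the spleen. In this ranking the TRAV7-2 clonotypes, all tied with TRAV7D-2, stood at 764 kb from the TRAJ array, while TRAV7D-2 lies at 1471 kb. Those of TRAV7D-5, all tied with TRAV7N-5, stood at 1319 kb against 1008 kb. The position of these tied clonotypes along the locus is thus not known. The correlation is a description across genes of the same library and not a test.

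**Figure D4:**
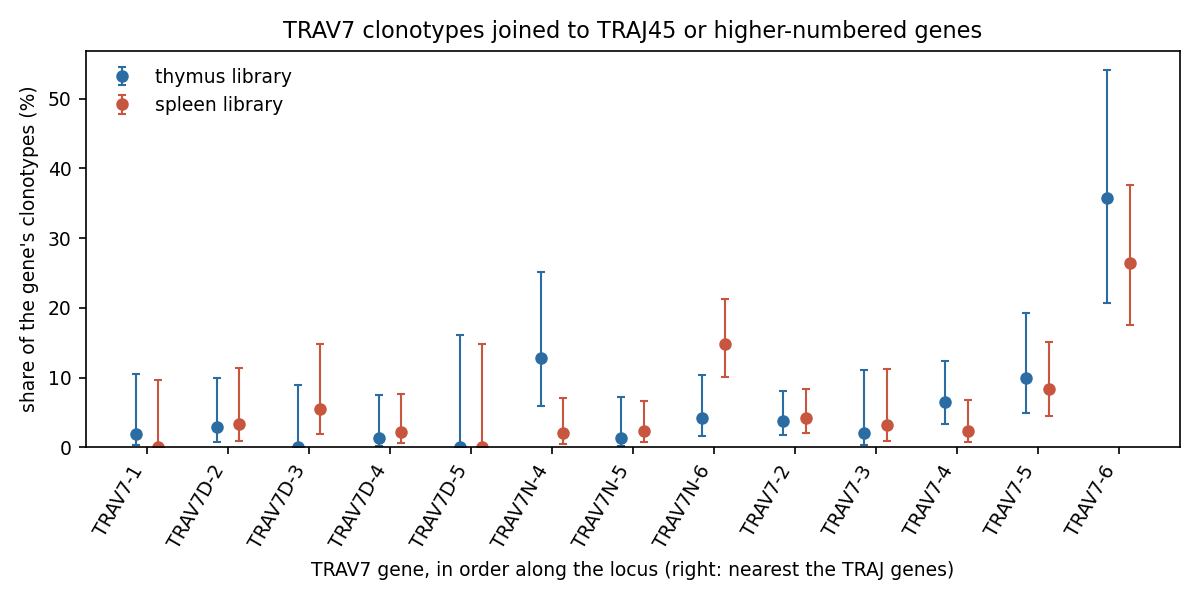
Share (%) of each TRAV7 gene's clonotypes that joined TRAJ45 or a higher-numbered gene, with the genes ordered along the locus and Wilson 95% intervals, in 1 thymus library (blue) and 1 spleen library (red). TRAV7-6 stood highest in both, at 35.7% and 26.4%.

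A productive CDR3 was found in 679 of 888 thymus clonotypes (76.5%, 73.6% to 79.1%) and 849 of 1177 spleen clonotypes (72.1%, 69.5% to 74.6%), against 74.3% and 69.0% of all other TCRα clonotypes. The excess was 2.13 percentage points (-0.995 to 5.06) in the thymus and 3.11 (0.304 to 5.79) in the spleen, and neither passed the test (Fisher's exact test, adjusted p = 0.273 and 0.0526). The spleen share minus the thymus share of TRAV7 was -4.33 percentage points (-8.08 to -0.511; Fisher's exact test, adjusted p = 0.0526). Nearly all of the remaining clonotypes were out of frame, 207 in the thymus and 323 in the spleen, while 2 and 5 had a stop codon in frame. Weighted by reads, 89.4% of TRAV7 reads were productive in both libraries. Among single genes the productive share ranged in the thymus from 61.4% (TRAV7-5, 49.7% to 72.0%) to 88.4% (TRAV7D-2, 78.8% to 94.0%), and in the spleen from 40.9% (TRAV7D-5, 23.3% to 61.3%) to 93.3% (TRAV7D-2, 84.1% to 97.4%). The TRAV7D-2 values leave out its ties listed under TRAV7-2, of which 80.1% and 73.5% were productive in thymus and spleen. All TRAV7D-5 clonotypes were ties with TRAV7N-5.

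No nucleotide lay between the aligned V and J ends in 212 of 679 productive thymus clonotypes (31.2%, 27.9% to 34.8%) and 287 of 849 productive spleen clonotypes (33.8%, 30.7% to 37.1%), and the median was 2 nt in both. For all other TCRα clonotypes the shares were 31.9% (30.4% to 33.4%) and 42.0% (40.7% to 43.2%), with a median of 2 nt in the thymus and 1 nt in the spleen. TRAV7 was thus lower than the rest in the spleen, by a difference of -8.16 percentage points (-11.5 to -4.68; Fisher's exact test, adjusted p = 2.38e-05), and differed from it in the thymus by -0.645 (-4.33 to 3.22; same test, adjusted p = 0.755). Whether the difference from the rest itself differed between the libraries was not tested. Within TRAV7 the spleen share minus the thymus share was 2.58 percentage points (-2.16 to 7.26; Fisher's exact test, adjusted p = 0.396). TRAV6 had 30.4% in thymus and 40.8% (37.7% to 44.0%) in spleen, and TRAV9 had 25.4% and 38.8% (33.8% to 44.1%). In the spleen the interval of TRAV9 overlapped that of TRAV7, and the interval of TRAV6 did not. Weighted by reads, TRAV7 stood at 33.0% and 47.4%, thymus first.

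By germline end, the share of productive junctions without inserted nucleotides was highest in the spleen for TRAV7-4 and TRAV7D-4, which have the long end, at 42.3%, and for TRAV7N-4 at 40.6%. It was 32.9% for the genes with the TRAV7-3 end, 28.6% for TRAV7D-2 and 26.2% for TRAV7-2. The same order of the long ends over the rest held in the thymus, at 36.6% and 34.5% against 30.1%, 27.9% and 28.8%. In this order, the thymus shares rest on 145, 29, 319, 61 and 125 productive clonotypes. Those of the spleen rest on 137, 69, 465, 56 and 122. No intervals were computed for these shares, and the order was not tested. The long end was also trimmed more, with a median of 4 nt removed in both libraries against 1 or 2 nt for the short ends. Trimming came from the V alignments, whose V ends can differ from the annotated ends that group the genes. The mean CDR3 length over all productive TRAV7 clonotypes was 40.1 nt (SD 5.12, 679 clonotypes) in the thymus and 39.8 nt (SD 3.79, 849 clonotypes) in the spleen, against 40.7 nt in both for the rest (SD 4.78 and 4.94).

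The third residue of the CDR3 mostly matched the germline end of the V gene listed first. Among productive clonotypes it was alanine in 96.8% of TRAV7-2, 91.8% of TRAV7D-2 and 97.9% of TRAV7-4 and TRAV7D-4 in the thymus, and in 97.5%, 94.6% and 94.9% in the spleen. It was valine in 96.6% and 97.1% of TRAV7N-4 and in 80.6% and 86.2% of the genes with the TRAV7-3 end. TRAV7N-4 and TRAV7-4, whose ends differ at 1 base within the third codon, differed in this residue in nearly every clonotype. Their transcripts differ at only 7 of 341 aligned nucleotides. The V alignment that named the gene covers these CDR3 bases, so the naming in part fixes this residue.

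Reads were spread over many TRAV7 clonotypes. The most abundant one held 1.09% of TRAV7 reads for the thymus and 2.68% for the spleen, and the 10 most abundant held 7.56% and 11.3%. The effective number of TRAV7 clonotypes, computed as exp(H) with H the Shannon entropy of their read shares, was 565 for thymus and 655 for spleen. In the thymus TRAV7-4 with TRAJ11 led with 1980 reads (0.216% of TCRα reads, the fifth of all TCRα clonotypes), followed by TRAV7N-5 with TRAJ5 (1873 reads), TRAV7D-2 with TRAJ9 (1588), TRAV7N-5 with TRAJ23 (1265) and the tied TRAV7-2 with TRAJ30 (1231). The first 4 of these CDR3 sequences were not found in the spleen. In the spleen TRAV7-4 with TRAJ31 led with 7769 reads (0.427% of TCRα reads, the sixth of all), followed by TRAV7D-3 with TRAJ9 (4063), TRAV7-3 with TRAJ9 (3168), TRAV7N-6 with TRAJ6 (3048) and TRAV7N-4 with TRAJ31 (2951). Of the 5 spleen clonotypes only those joined to TRAJ9 were found in the thymus, with 390 and 4 reads. None of the 5 had an inserted nucleotide, and in the thymus 3 of the 5 had between 1 and 6 of them, as the capitals above show for TRAV7-4 and TRAV7D-2. All 10 were productive.

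A CDR3 nucleotide sequence was called shared when it was in both libraries. This held for 108 thymus clonotypes of TRAV7 (12.2%, 10.2% to 14.5%) and 108 spleen clonotypes (9.18%, 7.66% to 10.96%), against 11.4% and 7.04% of all other TCRα clonotypes. The excess was 0.780 percentage points (-1.40 to 3.24) in the thymus and 2.13 (0.512 to 3.99) in the spleen (Fisher's exact test, adjusted p = 0.540 and 0.0241). The difference in the spleen did not pass Fisher's exact test with a minimum of 2 reads per clonotype (adjusted p = 0.0935) or 10 reads (adjusted p = 0.169). In all 127 sequences were concerned, of which 89 were listed as TRAV7 in both libraries, 19 only in the thymus and 19 only in the spleen.

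A shared CDR3 was often listed with another V gene in the other library. Of the 89 sequences listed as TRAV7 in both, all 89 had the same TRAJ gene, but 45 had the same TRAV7 gene and 61 the same subgroup. Of the 44 with different TRAV7 genes, 40 had genes whose germline CDR3 ends begin with the same 9 nucleotides. A shared CDR3 is the same sequence in both libraries by definition, so such a match is largely set in advance. Of the 38 listed as TRAV7 in 1 library only, 27 were TRAV14 and 8 were TRAV10 in the other. Each CDR3 sequence stood only once in a library's table, so rearrangements of different V genes with the same CDR3 in 1 library cannot be told apart from a single rearrangement.

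The read counts of these 89 sequences fell into separate ranges. In 35 of them the lower library had at most 2 reads (1 read in 30), while the other had 20 to 1200 reads, with a median of 313. All 35 were of the same subgroup in both libraries, and 26 had the same gene. The lower count was in the thymus for 19 and in the spleen for 16. In 53 sequences both libraries had at least 10 reads, and there 18 had the same gene (34.0%) and 25 the same subgroup. The last had 4 thymus reads and 3168 spleen reads. Of the 34 thymus clonotypes of TRAV7 with a single read, 17 had a CDR3 that was in the spleen library, and of the 49 in the spleen, 13 had one that was in the thymus library. Among the 573 shared TCRα sequences listed with other V genes in both libraries, 172 (30.0%) had at most 2 reads in the lower library, against 39.3% of the 89. Whether reads passed from one library to the other during preparation or sequencing was not tested.

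The most abundant shared sequences had no more than 1 inserted nucleotide, with 1 exception. TRAV7D-2 with TRAJ12 had 602 thymus reads and 1844 spleen reads, TRAV7N-5 with TRAJ27 had 634 and 787, and TRAV7N-6 with TRAJ12 had 571 and 549, each with the same V gene in both. A sequence joined to TRAJ7 had 679 and 802 reads and was TRAV7D-2 in the thymus and the tied TRAV7-2 in the spleen. One joined to TRAJ23 had 1007 and 677 reads and was TRAV7D-3 in the thymus and TRAV7N-6 in the spleen, which have the same annotated germline end. For this sequence 1 nt was counted as trimmed from V in the thymus and 3 nt in the spleen. The exception, joined to TRAJ27 with 2 inserted nucleotides, had 663 reads as TRAV7N-6 in the spleen and 576 as TRAV14N-2 in the thymus. Over all productive TRAV7 clonotypes, no nucleotide was inserted in 42.3% (32.9% to 52.2%) of the 97 shared and 29.4% (25.8% to 33.2%) of the 582 unshared in the thymus, and in 47.4% (37.8% to 57.3%) of the 97 shared and 32.0% (28.8% to 35.5%) of the 752 unshared in the spleen. The mean CDR3 length was 38.7 and 38.6 nt when shared and 40.3 and 39.9 nt when unshared.

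**Figure D5:**
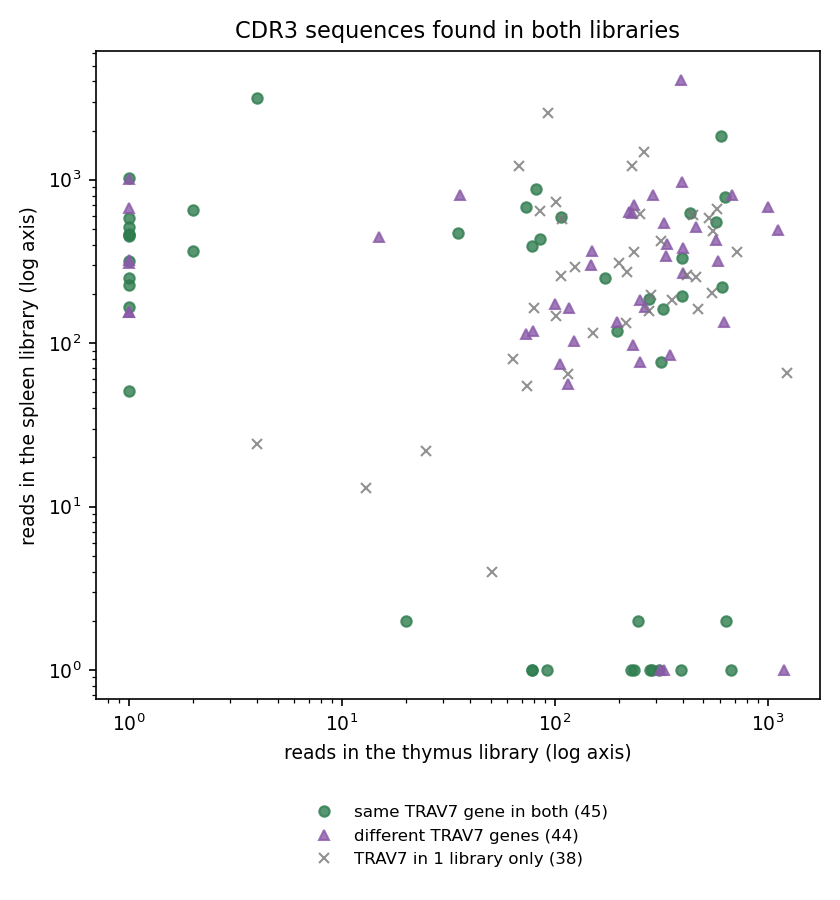
Reads of the 127 CDR3 sequences found in both libraries with TRAV7 in at least 1 of them, in the thymus (horizontal log axis) against the spleen (vertical log axis). Green circles are the 45 with the same TRAV7 gene in both, purple triangles the 44 with different TRAV7 genes and grey crosses the 38 with TRAV7 in 1 library only. A group of 35 sequences lies along the axes at 1 or 2 reads in 1 library, and most others lie above 10 reads in both.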

How the data were processed

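For each of the 2 libraries the authors amplified TCRα and TCRβ transcripts with a SMARTer mouse TCR profiling kit, sequenced them on a MiSeq and assembled clonotypes with MiXCR. The deposited count is the whole number of reads of each clonotype, without normalization, and the deposited fraction is that count over all reads of both chains, which was checked and not otherwise used. Clonotypes with a TRBJ or TRDJ gene were left out, among them 1 TRAV7-4 clonotype of 1 read. V and J genes were the first listed. Inserted nucleotides were taken from the aligned ends of V and J, and ends that overlap counted as none. TRAJ genes were grouped as TRAJ45 and above, TRAJ24 to TRAJ44, and TRAJ23 and below. Coordinates and germline sequences came from GENCODE M21 (GRCm38). The files carry no coordinates.

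The tests were 12 two-sided Fisher's exact tests on clonotypes counted once, with Benjamini-Hochberg adjustment over all 12, and Newcombe intervals of differences. The text names every TRAV7 gene, the 5 most abundant clonotypes of each tissue, the 5 leading TRAJ genes with ties, the leading V-J pair, and the 5 leading shared clonotypes by the smaller count. The members and these lists were chosen with earlier results of these data known. As alternatives, clonotypes under 2 or under 10 reads and clonotypes that were not productive were removed. Others were merging of clonotypes 1 nucleotide apart with at least 20 times the reads, ties left out or divided, weighting by reads, the top clonotype left out, shared clonotypes left out, other definitions of sharing, and a fold of 1.5. The merging was tried on clonotypes with added single substitutions. The tests were tried on a simulated productive share whose difference was larger than the productive differences found here. Differences of the size found were not simulated. Python 3.11.15, pandas 2.3.3, scipy 1.17.1 and Biopython 1.88 were used.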

Additional observations from a re-analysis of the deposited data

How the results depend on the processing

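With 1 library per tissue there was no replicate to leave out. No paired analysis was possible because each tissue has a single library. The differences that passed the test in share of clonotypes, in upstream TRAJ use and in junctions without insertion in the spleen kept their direction and passed under each alternative with Fisher's exact test (adjusted p at most 0.00234, 2.34e-16 and 7.70e-05). The smaller differences moved as follows.

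With at least 10 reads per clonotype, upstream TRAJ use of TRAV7 in the spleen minus the thymus was -0.256 percentage points (Fisher's exact test, adjusted p = 0.916), 70 spleen clonotypes were shared, and the excess of sharing in the spleen was 1.20 points; with at least 2 reads it was 1.45. Neither passed. Sharing by amino acid sequence gave 243 thymus and 258 spleen clonotypes and an excess of 4.35 points in the thymus, which passed (exact test, adjusted p = 0.0109), while sharing by sequence, V and J gave 45 in each library, -0.451 points in the thymus and 0.409 in the spleen (adjusted p = 0.689 and 0.534). Without shared clonotypes, the share without insertion was 2.08 points above the rest in the thymus (exact test, adjusted p = 0.350).

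Weighted by reads, TRAV7 minus the rest in the thymus was 2.59 points for junctions without insertion and 5.80 for productive clonotypes, and upstream TRAJ use was -12.6 points in the spleen. TRAV7 in the spleen minus the thymus was then -0.0684 points for productive clonotypes, 14.4 for junctions without insertion and -1.59 for upstream TRAJ use. The weighted shares were 89.4% productive in both libraries, 47.4% without insertion in the spleen, and 3.94% and 2.35% upstream TRAJ in thymus and spleen. The TRAV7 share of TCRα reads was 20.8% and 16.6% in thymus and spleen over productive clonotypes, 22.1% and 16.2% without the most abundant TCRα clonotype, and 19.5% and 15.6% without the most abundant TRAV7 clonotype.

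By shares of reads, 31 of 107 V genes (29.0%) passed 2-fold, and 2 of the 13 TRAV7 genes did (TRAV7-1 and TRAV7D-2). By shares of clonotypes at 1.5-fold, 32 of 107 (29.9%) did, and 4 of the 13 TRAV7 genes. For subgroups, copies, CDR3 length and the other TRAJ zones, 221 values under an alternative stayed within the interval or SD of the value reported and 71 did not, most of them when ties were left out or shares were of reads. The causes of these changes were not tested. Genes with under 50 clonotypes have wide intervals, and depth limits clonotypes of 1 or 2 reads most.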
